A study of Mus musculus with 12 samples.

Results

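RNA was sequenced from colonic crypts of 12 C57BL/6J mice, 1 library per mouse, and the comparison described here is the effect of deleting p53 in the intestinal epithelium, averaged over both genotypes of the histone acetyltransferase CBP. The members are all 12 of the 12 libraries, 6 p53-deleted and 6 p53-floxed, and the 14610 of 55471 listed genes that passed a filter on low counts. The groups were CBPWTp53-floxed, CBPAAp53-floxed, CBPWTp53ΔIEC and CBPAAp53ΔIEC, with 3 mice in each. In the CBPAA mice a pair of serines of CBP (encoded by Crebbp) is replaced by alanines in every cell, and CBPWT mice carry the unchanged protein. All 12 mice carried floxed p53 alleles. The deleted mice also carried a Cre recombinase driven by the Villin promoter, which is active in intestinal epithelial cells and not in the stroma, and the floxed mice carried no Cre, so the presence of Cre and the loss of p53 cannot be told apart. The labels of these libraries give no age. The question was which genes the loss of p53 moved in the same direction in CBPWT and CBPAA crypts.

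p53, encoded by Trp53, is a transcription factor that binds response elements near its target genes. Damaged DNA and other stresses stabilise the protein, and its targets then halt the cell cycle (the CDK inhibitor Cdkn1a), limit p53 itself (the ubiquitin ligase Mdm2) or promote cell death (Bax, Bbc3, Fas). Many genes of the cell cycle are repressed when p53 is active, in large part through Cdkn1a and the DREAM complex, which sits on CHR elements and works beside CCAAT boxes in their promoters. In the colon, dividing cells lie in the lower crypt and differentiated colonocytes above them, so in bulk RNA a change in the share of dividing cells and a change in RNA per cell cannot be told apart.

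The libraries held 11177430 to 18029125 counted reads. Epithelial markers summed to between 20533 and 29838 TPM (reads scaled to gene length and library size) per library, with 0 of 20 genes at 0 in all libraries. The 38 leukocyte, 30 stromal and 15 endothelial markers summed to 84.7 to 132, 7.29 to 11.5 and 4.62 to 7.48 TPM, with ranges that overlapped between the arms. Lyz1, a Paneth cell gene of the small intestine, had 1162 reads in CBPAAp53-floxed replicate 2, 14521 in CBPWTp53ΔIEC replicate 1, 2790 in CBPAAp53ΔIEC replicate 1 and 5665 in CBPAAp53ΔIEC replicate 3, against 0 to 90 reads in the other 8 libraries. Because 3 of these 4 libraries were p53-deleted, the main counts are also given without the 4 libraries. This leaves 3 CBPWTp53-floxed, 2 CBPAAp53-floxed, 2 CBPWTp53ΔIEC and 1 CBPAAp53ΔIEC library, so that the CBPAAp53ΔIEC group is then a single mouse.

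Trp53 (ENSMUSG00000059552, chr11:69580359-69591873, plus strand, GRCm38) had 437, 757 and 821 reads in the CBPWTp53-floxed libraries and 675, 934 and 488 in the CBPAAp53-floxed libraries. It had 111, 79 and 86 reads in the CBPWTp53ΔIEC libraries and 110, 98 and 141 in the CBPAAp53ΔIEC libraries. Scaled to library size with TMM factors (CPM), the floxed libraries lay at 39.3 to 52.6 and the deleted libraries at 5.01 to 10.4. Every deleted library was far below every floxed library, and the fitted level was 6.11-fold lower after deletion, a log2 fold change of -2.61 ± 0.15 (SE, 6 against 6 libraries, edgeR quasi-likelihood test, Benjamini-Hochberg adjusted p = 9.7e-07). The change was -2.64 ± 0.22 within CBPWT and -2.58 ± 0.22 within CBPAA. Which part of the gene the remaining reads cover was not tested. The processed pseudogene Trp53-ps (chr17:54419680-54420841) had 95 reads over the floxed libraries and 2 over the deleted ones, but it is a near-identical copy, so that its reads may come from Trp53 and its own change is uncertain. Around Trp53, 9 other genes within 100 kb were tested and 2 were called. Efnb3, an ephrin ligand upstream with a gap of 20.2 kb, rose by 1.11 ± 0.29 (adjusted p = 0.0443), and Sat2, an acetyltransferase with a gap of 30.2 kb downstream, rose by 0.90 ± 0.20 (adjusted p = 0.0211). Sat2 had 1.98 to 5.01 CPM in the floxed libraries and 5.07 to 6.63 CPM in the deleted ones. Wrap53, which lies head to head with Trp53, differed by 0.12 ± 0.13 (adjusted p = 0.652).

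A gene is called higher or lower here when its adjusted p was under 0.05 and its log2 fold change was beyond 0.5. Of all 14610 tested genes, 2.7% were called higher and 0.623% lower. Of 51 tested p53 targets, Trp53 included, 0 were called higher and 9 lower, and the median log2 change of the list was -0.13, beside 0.01 over all genes tested. Without the 4 libraries with Lyz1 reads the list had 3 higher and 14 lower, with a median of -0.21. The largest falls were those of a receptor of the TNF receptor family and of an inhibitor of AKT signalling.

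Eda2r (chrX:97333840-97377216), a receptor of the TNF receptor family, had 18 to 36 reads in each floxed library and 0 to 2 in each deleted library. Over the arms this was 156 against 4 reads, a 37.1-fold ratio of normalised counts (95% exact interval 14.2 to 138, which covers counting error only), with an adjusted p of 9.87e-05 in edgeR. Phlda3 (chr1:135766119-135769136), which competes with AKT for membrane lipids, had 7 to 30 reads in each floxed library and 0 to 3 in each deleted one. Its ratio was 15.5 (7.28 to 39.4), with an adjusted p of 0.00677. Both genes were nearly silent in all 6 deleted libraries.

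Ephx1 (chr1:180976210-181020904), a microsomal epoxide hydrolase of foreign compounds, had 13.8, 14.99 and 20.9 CPM as the lowest, median and highest floxed library and 3.36, 4.45 and 5.87 CPM in the deleted libraries. The level was 3.63-fold lower (log2 -1.86 ± 0.15, edgeR adjusted p = 4.16e-05). Gdf15 (chr8:70629393-70632456), a secreted stress hormone, had 1.78, 3.31 and 4.30 CPM in floxed and 0.934, 1.24 and 1.34 CPM in deleted libraries, 2.57-fold lower (log2 -1.36 ± 0.23). Pvt1, a long noncoding RNA beside Myc, fell from a median of 1.30 to 0.514 CPM (log2 -1.26 ± 0.24, adjusted p = 0.0142), while Myc itself, looked up after the values were seen, differed by -0.09 ± 0.07 (adjusted p = 0.471). The arms did not overlap for any of these genes.

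The last 3 falls among the targets were smaller. Plk2, a kinase of centriole duplication, had 25.9 to 36.9 CPM in floxed and 17.7 to 25.4 CPM in deleted libraries (log2 -0.61 ± 0.10). Ccng1, cyclin G1, which feeds back on MDM2, had 108 to 156 CPM in floxed and 83.7 to 107 CPM in deleted libraries (-0.57 ± 0.09). Dglucy, a mitochondrial enzyme of D-glutamate, had 23.9 to 26.2 CPM in floxed and 14.9 to 20.9 CPM in deleted libraries (-0.52 ± 0.09), and its reads may come from either strand. Each was below all floxed libraries in 6 of 6 deleted libraries, with an adjusted p of 0.0106.

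Well known targets of p53 were among those that did not pass. Cdkn1a (chr17:29090976-29100727) had 197, 239 and 287 CPM as the lowest, median and highest floxed library and 171, 215 and 301 CPM in the deleted ones. The arms overlapped almost wholly, and the log2 difference was -0.12 ± 0.14 (adjusted p = 0.676; -0.23 ± 0.11 without the 4 libraries). Mdm2 differed by -0.01 ± 0.09 (40.8 to 46.4 CPM floxed, 35.7 to 49.97 CPM deleted), Bax by -0.05 ± 0.14, Bbc3 by -0.32 ± 0.14 and Fas by -0.48 ± 0.21, none of them past an adjusted p of 0.05. Trp53inp1, a cofactor of p53, was just short of the threshold, at -0.54 ± 0.15 (adjusted p = 0.0521). Mdm2, Bax, Bbc3, Fas and Trp53inp1 were picked as textbook targets after the values were seen.

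The promoter of Cdkn1a is shown because it holds a near-perfect p53 response element although its transcript was called neither higher nor lower. The window is the 250 bases before a RefSeq start (GRCm38.p6), chr17:29090729-29090978, plus strand, and the capitals mark the element, at bases -51 to -32 from the start, with 1 mismatch to the consensus.
Cdkn1a: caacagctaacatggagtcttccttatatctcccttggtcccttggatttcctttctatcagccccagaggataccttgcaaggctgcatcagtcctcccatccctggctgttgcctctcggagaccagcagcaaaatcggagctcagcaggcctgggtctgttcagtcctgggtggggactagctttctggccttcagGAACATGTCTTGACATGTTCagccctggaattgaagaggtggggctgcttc
A p53 response element with at most 3 mismatches and at most 2 bases between its decamers was found in such windows of 7 of 40 p53 targets with a RefSeq window (17.5%) and of 140 of 10311 tested genes with one (1.36%). Among the genes called higher the share was 2.60% and among those called lower 1.52%. A match in a window of this length is a description, and elements further away were not searched.

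A fall at the locus of a small RNA is shown with the sequence of that RNA. Gm37795 (ENSMUSG00000102813, chr4:150068539-150070997, plus strand) is a long transcript that starts just after the mature 3p sequence (chr4:150068517-150068537) of miR-34a, a miRNA known as a target of p53. It had 1.01, 1.88 and 2.43 CPM as the lowest, median and highest floxed library and 0.187, 0.428 and 0.760 CPM in the deleted libraries, which did not overlap. It fell by 1.86 ± 0.32 on the log2 scale (edgeR adjusted p = 0.0106). The mature miRNA was not measured by these poly(A) libraries. Its RefSeq sequence, from chr4:150068473-150068494 on the plus strand (GRCm38.p6), has its seed in capitals.
mmu-miR-34a-5p: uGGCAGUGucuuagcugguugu

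**Figure D1:**
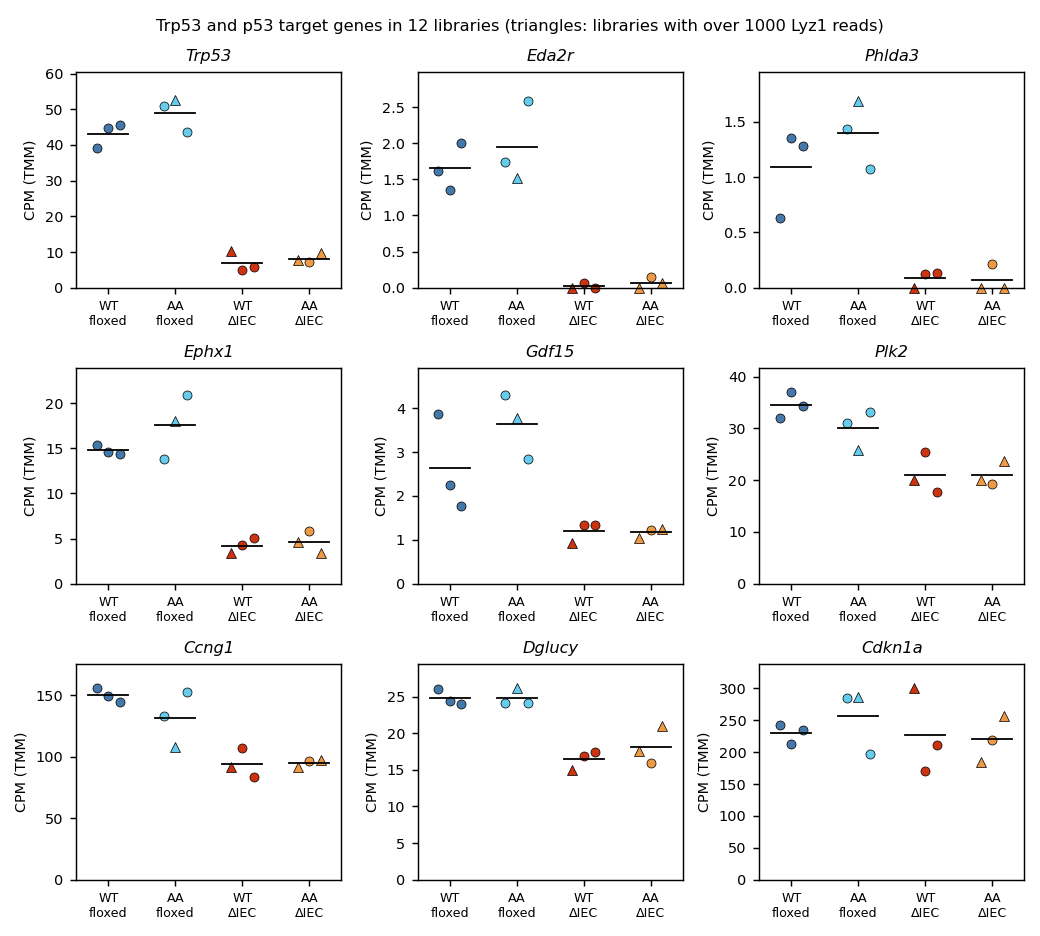
CPM values (TMM-scaled, linear axes from 0) of Trp53, 7 of its called targets and Cdkn1a in the 12 libraries, grouped as CBPWT and CBPAA floxed and CBPWT and CBPAA ΔIEC with 3 libraries each. Points are libraries, lines are group means and triangles are the 4 libraries with over 1000 Lyz1 reads. In the first 8 panels every ΔIEC point is below every floxed point, whereas the Cdkn1a points of the arms overlap.

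Across the genome, 395 genes were called higher and 91 lower after p53 deletion, so 81.3% of the 486 calls were rises. At a log2 change beyond 1 there were 243 rises and 23 falls. The median over all genes tested was 0.01, with quartiles of -0.13 and 0.16. The 6 deleted and 6 floxed libraries did not overlap in 257 genes, 1.76% of those tested, and 117 of these were called, 78 higher and 39 lower. The rises were led by cell division: 141 of the 395 genes called higher stood in the lists of mitosis, DNA replication, E2F factors and G1 cyclins, and DNA repair. Those lists held 227 of the 14610 genes tested. Without the 4 libraries with Lyz1 reads, 1083 of 15208 tested genes were higher (7.12%) and 600 lower (3.95%), and 474 of the 486 genes were called again, all 474 in the same direction. The number of rises went from 395 to between 99 and 694, and of falls from 91 to between 28 and 301, when 1 library was left out. It was lowest without any 1 of the CBPWTp53-floxed libraries (120, 146 and 99 rises, 30, 34 and 28 falls) and highest without CBPAAp53ΔIEC replicate 3 or CBPWTp53ΔIEC replicate 1 (694 and 684 rises, 269 and 301 falls).

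**Figure D2:**
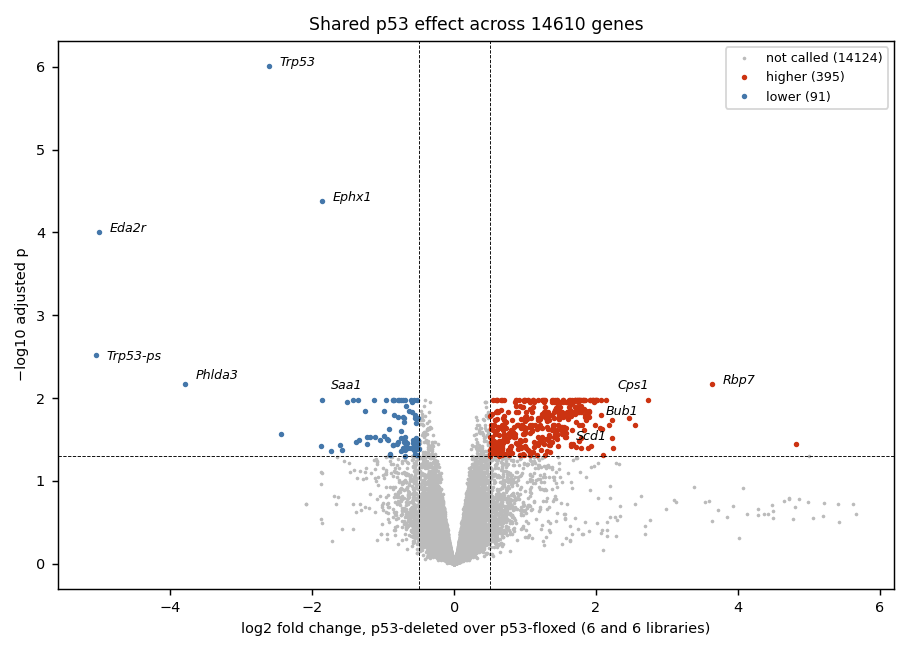
Each point is 1 of the 14610 genes tested, with its log2 fold change of 6 p53-deleted over 6 p53-floxed libraries against the negative log10 of its adjusted p (edgeR). The dashed lines are the thresholds of 0.05 and 0.5. The 395 rises outnumber the 91 falls, and Trp53, Ephx1, Eda2r, Trp53-ps and Phlda3 have the smallest adjusted p among the falls.

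Genes of mitosis and cytokinesis rose almost as 1 body. Of 90 tested members, 85 were called higher and 0 lower, beside 2.7% called higher over all genes, and the median log2 change was 1.49. Without the 4 libraries the counts were 88 and 0, with a median of 1.82. The 5 members not called were Bub3 (0.48, adjusted p = 0.0156, short of the fold threshold), Fzr1 (0.36, adjusted p = 0.0426, likewise), Ncapg2 (1.12, adjusted p = 0.0572), Cenpk (0.85, adjusted p = 0.103) and the securin Pttg1 (-0.07, adjusted p = 0.709). They are named because they are the exceptions, after their values were seen. Without 1 of the CBPWTp53-floxed libraries 40, 52 and 33 members were called, and without CBPAAp53ΔIEC replicate 1, 47 were. The plot of summed list levels shows how the rise was spread over the libraries.

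The machinery that condenses, attaches and moves chromosomes held many of the named rises. Ncapg (chr5:45669919-45700546), a subunit of condensin, had 3.27, 3.95 and 5.89 CPM as the lowest, median and highest floxed library and 6.01, 20.01 and 26.6 CPM in the deleted libraries. The arms did not overlap, though the lowest deleted library stood next to the floxed ones, and the fitted level was 4.21-fold higher (log2 2.07 ± 0.34, edgeR adjusted p = 0.0106). Bub1 and Ttk, kinases of the spindle checkpoint, rose 3.96-fold (2.48 to 3.86 CPM floxed, 3.94 to 18.8 CPM deleted) and 3.44-fold (2.17 to 2.98 CPM floxed, 3.25 to 13.4 CPM deleted). Aurkb, the kinase of the chromosomal passenger complex, had 6.55, 8.75 and 9.59 CPM in floxed and 10.7, 32.5 and 42.3 CPM in deleted libraries, 3.46-fold higher. Its partner Birc5, survivin, rose 3.34-fold, from a median of 9.18 to 33.8 CPM, with arms that overlapped.

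The kinesins Kif2c, which takes microtubules apart at kinetochores, Kif22, which pushes chromosome arms, and Kif15 rose 3.88-fold, 3.56-fold and 3.52-fold. Nusap1, which bundles spindle microtubules, rose 3.99-fold from a median of 6.85 to 30.2 CPM. Bub1b rose 3.18-fold, Dlgap5 2.69-fold and Cks1b, a subunit of cyclin-dependent kinases, 2.36-fold. Depdc1a, Iqgap3, Shcbp1 and Cdca2, genes that dividing cells express, rose 4.04-fold, 4.02-fold, 3.90-fold and 3.38-fold, and the last 3 of these were outside the fixed lists. All of these genes had an adjusted p of 0.0106. The textbook markers Mki67 and Top2a, added after their values were seen, rose 2.86-fold (adjusted p = 0.0273) and 3.26-fold (adjusted p = 0.0127), Mki67 from a median of 93.8 to 298 CPM.

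Promoter windows of the rising genes were searched for short motifs on both strands of the 250 bases before each RefSeq start. The CHR element was spelled TTTGAA or TTTAAA and the CCAAT box CCAAT. A CHR was present for 36 of 76 mitosis genes with a window (47.4%), for 33.1% of the genes called higher, for 31.8% of those called lower and for 20.97% of all tested genes with a window. A CCAAT box was present for 69.7%, 57.5%, 43.9% and 40.6% of the same sets. Both stood together for 39.5% of the mitosis genes, 21.1% of the genes called higher, 15.2% of those called lower and 7.97% of all. The E2F site, spelled TTTCCCGC or TTTGGCGC, was found for 6 of 40 replication genes, 6.58% of the mitosis genes, 6.49% of the genes called higher, 0 of 66 called lower and 2.83% of all. These shares are descriptions, and such short words also occur without a role.

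The windows of 3 of the rising genes that hold both words are printed to show how they lie, with every CHR and CCAAT box in capitals (TTCAAA and ATTGG are the same words on the other strand). They are, on the plus strand of GRCm38.p6, chr3:159495183-159495432 for Depdc1a, chr5:45669675-45669924 for Ncapg and chr7:79659946-79660195 for Ticrr, a factor that fires replication origins.
Depdc1a: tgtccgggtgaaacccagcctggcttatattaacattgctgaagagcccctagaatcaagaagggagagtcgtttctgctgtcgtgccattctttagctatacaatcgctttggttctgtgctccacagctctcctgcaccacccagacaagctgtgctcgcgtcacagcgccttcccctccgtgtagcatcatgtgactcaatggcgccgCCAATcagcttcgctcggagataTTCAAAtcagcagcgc
Ncapg: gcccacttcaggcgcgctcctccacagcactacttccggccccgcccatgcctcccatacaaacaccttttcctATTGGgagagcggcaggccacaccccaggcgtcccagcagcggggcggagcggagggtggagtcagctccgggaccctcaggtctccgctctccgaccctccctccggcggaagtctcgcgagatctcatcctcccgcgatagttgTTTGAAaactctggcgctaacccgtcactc
Ticrr: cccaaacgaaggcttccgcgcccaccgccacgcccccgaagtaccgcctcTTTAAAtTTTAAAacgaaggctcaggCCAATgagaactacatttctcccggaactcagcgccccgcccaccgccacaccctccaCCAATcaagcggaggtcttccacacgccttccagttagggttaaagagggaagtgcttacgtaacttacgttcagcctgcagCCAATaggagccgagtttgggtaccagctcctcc
In Depdc1a the CHR starts at base -16 and a CCAAT box at base -39. In Ncapg the CHR starts at base -30 and the CCAAT box lies further off, at base -176, whereas in Ticrr the nearest CCAAT box is at base -34 and the nearest CHR at base -193.

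Genes that copy DNA rose too, by less. Of 50 tested members of the list of DNA replication and nucleotide supply, 31 were called higher (62%, beside 2.7% of all tested genes) and 0 lower. All 50 had a log2 change above 0 and the median was 0.78. Without the 4 libraries 46 of 50 were called, with a median of 1.03. Without 1 of the CBPWTp53-floxed libraries 6, 7 and 5 were called, without CBPWTp53ΔIEC replicates 2 and 3, 12 and 13, and without CBPAAp53ΔIEC replicates 1 and 2, 8 and 14. Mcm10, which helps open the replication fork, had 6.16, 8.41 and 10.3 CPM as the lowest, median and highest floxed library and 11.3, 17.3 and 19.8 CPM in the deleted libraries, 1.99-fold higher with no overlap (log2 0.99 ± 0.16, edgeR adjusted p = 0.0106). Cdc45, a part of the replicative helicase, rose 2.61-fold (1.69 to 2.54 CPM floxed, 2.69 to 9.10 CPM deleted). Ticrr rose 2.89-fold, Chaf1a, a histone chaperone, 2.16-fold and Dbf4, the activator of a kinase of origins, 1.98-fold. Cdc45 and Ticrr overlap Ufd1 and Kif7 on the opposite strand.

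Of 32 E2F factors, RB proteins and G1 cyclins, 7 were called higher (21.9%, beside 2.7% of all tested genes) and 0 lower, with a median log2 change of 0.19. Without 1 of the CBPWTp53-floxed libraries the count was 3, 4 and 2, and without CBPAAp53ΔIEC replicate 1 it was 4. The rises were those of E2f1, E2f2, E2f7 and E2f8, the cyclin Ccne1, the CDK inhibitor Cdkn2c and Skp2, which targets CDK inhibitors for degradation. E2f7, a repressor of cell cycle genes, had 1.29, 1.78 and 2.32 CPM in floxed and 2.49, 6.00 and 8.84 CPM in deleted libraries, 3.04-fold higher (log2 1.61 ± 0.29, adjusted p = 0.0113). Ccne1 rose 2.45-fold (1.89 to 3.83 CPM floxed, 4.01 to 10.9 CPM deleted, adjusted p = 0.0146), and Skp2 rose 2.14-fold (3.23 to 3.48 CPM floxed, 3.94 to 10.7 CPM deleted). The G1 cyclins Ccnd1 (0.27 ± 0.10, adjusted p = 0.144) and Ccnd2 (0.09 ± 0.13, adjusted p = 0.734), named after their values were seen, did not pass.

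In the list of DNA repair and checkpoint genes 18 of 55 were called higher (32.7%, beside 2.7% of all tested genes) and 0 lower, with a median of 0.40. The count was 9, 9 and 6 without 1 of the CBPWTp53-floxed libraries, 9 without CBPWTp53ΔIEC replicate 2 or 3 and 9 and 10 without CBPAAp53ΔIEC replicates 1 and 2. Brca1, which acts in homologous recombination, had 3.00, 3.85 and 6.95 CPM in floxed and 6.35, 14.4 and 18.4 CPM in deleted libraries, 3.10-fold higher with a slight overlap (log2 1.63 ± 0.28, adjusted p = 0.0106). Fancb of the Fanconi anaemia core complex rose 3.32-fold, Parpbp and Rad54b 3.17-fold and 3.16-fold, and Trip13, which remodels checkpoint proteins, 2.39-fold. Among 21 upstream regulators of p53 only the checkpoint kinase Chek1 was called, at 2.11-fold higher (2.87 to 3.48 CPM floxed, 2.62 to 8.81 CPM deleted, adjusted p = 0.0224), and the list had 0 to 2 calls when 1 library was left out, 0 without any 1 of the CBPWTp53-floxed libraries, CBPWTp53ΔIEC replicate 2 or 3 or CBPAAp53ΔIEC replicate 1 or 2, and 2 without the 4 libraries.

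The rise in cell division was uneven among the deleted libraries. The 90 mitosis genes summed to 784 to 1028 TPM in the 6 floxed libraries, to 1270, 2671 and 2702 TPM in CBPWTp53ΔIEC replicates 1 to 3 and to 2214, 2150 and 921 TPM in CBPAAp53ΔIEC replicates 1 to 3. CBPAAp53ΔIEC replicate 3 thus stayed within the floxed range, and CBPWTp53ΔIEC replicate 1 was closer to it than the other 4. Both of these libraries carry lower numbers in their names than every floxed library, and the other 4 deleted libraries carry higher ones. What the numbers stand for is not in the labels, and their part in the unevenness was not tested. The number of the 90 genes above every floxed library was 87, 89 and 89 in the CBPWTp53ΔIEC libraries and 89, 89 and 14 in the CBPAAp53ΔIEC libraries. For the replication list the sums were 495 to 649 TPM in the floxed libraries, 657, 1051 and 1200 TPM in CBPWTp53ΔIEC and 955, 937 and 535 TPM in CBPAAp53ΔIEC.

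CBPAAp53ΔIEC replicate 3 was like the other deleted libraries in Trp53 and in the p53 targets called lower. Its Trp53 level was 9.74 CPM, within the 5.01 to 10.4 CPM of the deleted arm, and all 9 p53 targets called lower were below every floxed library in it and in each of the other 5. Of all 51 tested targets, 16 were below and 2 above every floxed library in it. In the other 5 deleted libraries 18 to 24 were below and 7 to 13 above. Over the 395 genes called higher, 335, 392 and 394 were above every floxed library in the CBPWTp53ΔIEC libraries and 393, 382 and 102 in the CBPAAp53ΔIEC libraries. Of the 91 genes called lower, 80, 89, 90, 87, 80 and 51 were below every floxed library in the same order. The 9, 395 and 91 genes were called on these libraries, so their counts are descriptions. Without CBPAAp53ΔIEC replicate 3, all 486 genes were called again, within 694 rises and 269 falls.

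The libraries with small intestinal markers and those with a weak rise coincided in part. The small intestinal enterocyte list summed to 3475 to 7642 TPM in the floxed libraries, to 20725, 3189 and 3232 TPM in CBPWTp53ΔIEC replicates 1 to 3 and to 6359, 3251 and 10802 TPM in CBPAAp53ΔIEC replicates 1 to 3. The highest sums were in the 2 deleted libraries with the lowest mitosis sums. CBPAAp53ΔIEC replicate 1, with 2790 reads of Lyz1, had a high mitosis sum. With the summed CPM of Lyz1 and the defensins as a covariate, 87 of the 90 mitosis genes were called higher, with a median of 1.86, and 43 of the 50 replication genes, with a median of 1.001.

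**Figure D3:**
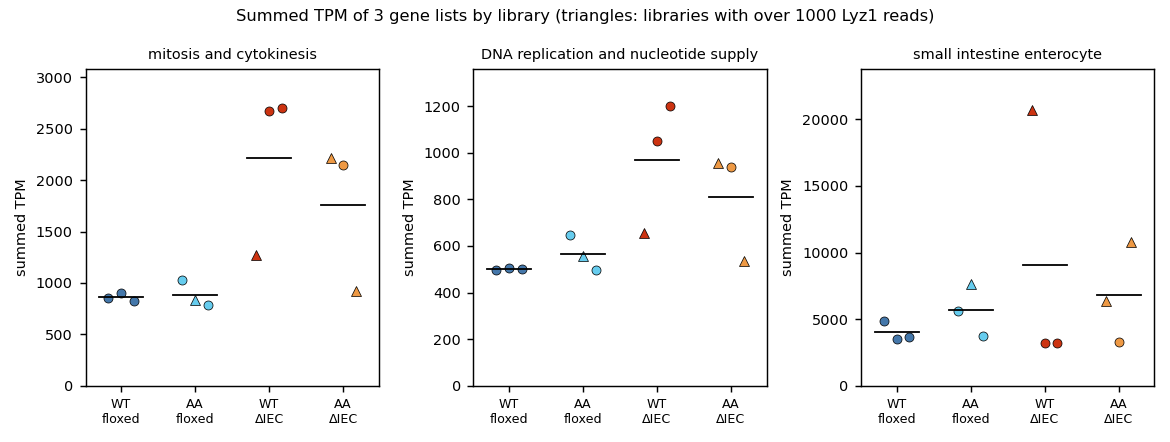
Summed TPM of the mitosis and cytokinesis, DNA replication and nucleotide supply, and small intestine enterocyte lists in the 12 libraries, on linear axes from 0. Points are libraries, lines are means of the 3 libraries of a group and triangles are the 4 libraries with over 1000 Lyz1 reads. CBPAAp53ΔIEC replicate 3 has 921 TPM of mitosis genes, within the floxed range of 784 to 1028, and CBPWTp53ΔIEC replicate 1 has the highest sum of enterocyte genes, 20725 TPM.

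Some genes that make cholesterol and fatty acids rose. Of 39 tested members 9 were called higher (23.1%, beside 2.7% of all tested genes) and 0 lower. A log2 change above 0 was seen in 36, and the median was 0.43. Without the 4 libraries 25 of 39 were called higher and 0 lower, with a median of 0.61. The count rested on few libraries: 1 was called without any 1 of the CBPWTp53-floxed libraries or CBPAAp53ΔIEC replicate 1, 2 or 3 without CBPWTp53ΔIEC replicate 2 or 3 or CBPAAp53ΔIEC replicate 2, and 5 without CBPAAp53-floxed replicate 1 or 3, against 16 without CBPWTp53ΔIEC replicate 1 and 19 without CBPAAp53ΔIEC replicate 3. Nsdhl, a sterol dehydrogenase, had 20.99, 25.6 and 27.8 CPM as the lowest, median and highest floxed library and 30.2, 40.2 and 47.8 CPM in the deleted libraries, 1.60-fold higher with no overlap (log2 0.68 ± 0.11, edgeR adjusted p = 0.0106). Fads1, a fatty acid desaturase, rose 2.36-fold (adjusted p = 0.023) and Tm7sf2, a sterol reductase, 1.65-fold (adjusted p = 0.0232). The summed level of the list was 1638 to 2259 TPM in the floxed libraries. It was 1666, 2931 and 3447 TPM in CBPWTp53ΔIEC and 2619, 3096 and 1828 TPM in CBPAAp53ΔIEC, so the 2 deleted libraries with the lowest mitosis sums lay within the floxed range.

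Genes of the circadian clock moved in both directions. Of 22 tested members 3 were called higher and 3 lower, each 13.6%, beside 2.7% and 0.623% of all tested genes. The median log2 change was -0.40, and without the 4 libraries 4 and 10 were called. Leaving out 1 library gave 1 to 4 higher and 1 to 9 lower, with 9 lower without CBPWTp53ΔIEC replicate 1 or CBPAAp53ΔIEC replicate 3 and 1 lower without CBPAAp53-floxed replicate 1, any of the CBPWTp53-floxed libraries or any other deleted library. Per2, a repressor of the clock, had 17.5, 21.5 and 23.4 CPM in floxed and 9.54, 10.2 and 17.5 CPM in deleted libraries, 1.82-fold lower with no overlap (log2 -0.86 ± 0.15, adjusted p = 0.0106). Per3 fell 2.34-fold (adjusted p = 0.0364). Bmal1, whose protein activates Per2 and Per3, rose 2.09-fold, from a median of 13.7 to 31.6 CPM (log2 1.06 ± 0.19, adjusted p = 0.0113), and Cry1 and Nfil3 rose 1.49-fold and 1.503-fold. Bmal1 overlaps an antisense transcript. The mice were killed over several hours of the day and the hour of each mouse is not in the labels, so the part of the hour in these values was not tested.

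Markers of the differentiated colon were called in either direction. Of 43 colonocyte genes 1 was called higher (2.33%, beside 2.7% of all tested genes) and 2 lower (4.65%, beside 0.623%). The median log2 change of the list was -0.06. Leaving out 1 library gave 0 to 1 higher and 1 to 4 lower, with 4 lower without CBPWTp53ΔIEC replicate 1 or CBPAAp53ΔIEC replicate 3, and without the 4 libraries there were 1 higher and 5 lower, with a median of -0.17. Saa1, a serum amyloid of the mucosa, had 509, 660 and 936 CPM in floxed and 203, 279 and 450 CPM in deleted libraries, 2.20-fold lower with no overlap (log2 -1.14 ± 0.19, adjusted p = 0.0106), and reads shared with its near-identical paralogs make this value uncertain. Best2, an anion channel of colonic goblet cells, had 40.4 to 68.4 CPM in floxed and 17.9 to 45.6 CPM in deleted libraries, 1.89-fold lower (adjusted p = 0.0239). Car1, a colonic carbonic anhydrase, had 4145 to 6787 CPM in floxed and 5500 to 8840 CPM in deleted libraries, 1.53-fold higher (adjusted p = 0.0378). Car4, another carbonic anhydrase, lay just under the fold threshold, at -0.50 ± 0.10 (adjusted p = 0.0185), with 415 to 567 CPM in floxed and 292 to 407 CPM in deleted libraries.

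Among 35 cytochrome P450 genes 2 were called higher (5.71%, beside 2.7% of all tested genes) and 6 lower (17.1%, beside 0.623%), with a median of -0.03. The falls numbered 2 or 3 without CBPAAp53-floxed replicate 1, CBPAAp53ΔIEC replicate 1, CBPWTp53ΔIEC replicate 2 or 3 or any 1 of the CBPWTp53-floxed libraries, and the rises 0 to 3. Cyp2d9 had 22.6, 27.0 and 43.2 CPM in floxed and 7.56, 9.30 and 18.7 CPM in deleted libraries, 2.70-fold lower with no overlap (adjusted p = 0.0106). Cyp2d10 was 1.80-fold lower (35.7 to 50.4 CPM floxed, 19.7 to 28.9 CPM deleted, adjusted p = 0.0106) and Cyp2d34 1.45-fold lower (adjusted p = 0.0201). These paralogs lie side by side on chromosome 15 and may share reads, so each value is uncertain. Cyp27a1, a sterol hydroxylase of mitochondria, fell 1.65-fold (27.2 to 40.8 CPM floxed, 15.5 to 27.3 CPM deleted, adjusted p = 0.017). Cyp4f15, a fatty acid hydroxylase, rose, from 0.059 to 0.906 CPM in floxed to 1.16 to 4.55 CPM in deleted libraries, 5.54-fold (adjusted p = 0.0174).

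Some of the largest changes lay outside cell division. Rbp7, a carrier of retinol, had 0 to 3 reads in each floxed library and 6 to 24 in each deleted library, 7 against 90 reads in all, a 13.5-fold ratio of normalised counts (95% exact interval 6.29 to 34.6, counting error only, edgeR adjusted p = 0.00677). Cps1 (chr1:67123026-67231259), the entry enzyme of the urea cycle, had 7.43, 12.5 and 15.6 CPM in floxed and 23.2, 41.1 and 83.8 CPM in deleted libraries, 4.42-fold higher with no overlap (log2 2.14 ± 0.33, adjusted p = 0.0106). Cps1 is also strongly expressed in the small intestine, and without the 4 libraries its change was 1.68 ± 0.30 (adjusted p = 0.00969). Dnm1, a GTPase of membrane fission, rose 3.28-fold (2.19 to 7.60 CPM floxed, 9.05 to 24.4 CPM deleted), and St6gal2, a sialyltransferase, 4.55-fold from at most 0.269 CPM to 0.373 to 1.00 CPM. Mxd3, of the MYC network, rose 4.24-fold in the fit (adjusted p = 0.0239), with 5.43 to 7.90 CPM in 4 deleted libraries, 2.89 CPM in CBPWTp53ΔIEC replicate 1 and 0.55 CPM in CBPAAp53ΔIEC replicate 3, where the floxed libraries had 0.624 to 1.43 CPM.

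Among the falls, Anxa8, an annexin, had 24.3, 31.7 and 44.3 CPM in floxed and 4.88, 7.18 and 23.6 CPM in deleted libraries, 2.99-fold lower (adjusted p = 0.0426). Chrd, an inhibitor of BMP ligands, fell 1.99-fold (1.94 to 2.59 CPM floxed, 0.634 to 1.54 CPM deleted, adjusted p = 0.0286). Bmf, a promoter of apoptosis of the BCL2 family, fell 1.46-fold (20.9 to 28.3 CPM floxed, 11.8 to 19.4 CPM deleted, adjusted p = 0.0332). Lama5 fell 1.99-fold (adjusted p = 0.0142), while Lamb1 rose 2.26-fold (adjusted p = 0.0349), both laminin chains of the basement membrane. Pdgfrb and Fbln1, of the stroma list, went opposite ways. The list had only 6 tested genes, with 1 called higher and 1 lower, each 16.7%, beside 2.7% and 0.623% of all tested genes. Pdgfrb was 1.82-fold lower (7.31 to 13.4 CPM floxed, 4.67 to 7.16 CPM deleted, adjusted p = 0.0106), and Fbln1, a matrix protein, was 2.73-fold higher (0.619 to 1.34 CPM floxed, 1.45 to 3.36 CPM deleted, adjusted p = 0.0113).

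Stem cell and Wnt genes had no call. Of 42 tested members 0 were called in either direction in edgeR, 9 had an unadjusted p under 0.05 and the median log2 change was 0.02, and without the 4 libraries 4 were called higher. Lgr5, the marker of crypt base stem cells, had 17.001, 18.9 and 23.5 CPM in floxed and 17.7, 20.2 and 25.1 CPM in deleted libraries (0.08 ± 0.09, adjusted p = 0.655). Olfm4, a stem cell gene of the small intestine, had 0.0555 to 11.9 CPM in floxed and 0.268 to 176 CPM in deleted libraries, with an adjusted p of 0.161. Crebbp differed by -0.09 ± 0.10 (39.6 to 57.6 CPM floxed, 38.1 to 52.7 CPM deleted).

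The lists of goblet, enteroendocrine, leukocyte, endothelial and epithelial markers, and those of NRF2, NF-kB, oxidative phosphorylation, histone acetyltransferases, ER chaperones, heat shock, immediate early genes, fatty acid oxidation and MHC class II, had 0 calls in edgeR. In these lists 0 to 14 members had an unadjusted p under 0.05, and without the 4 libraries 0 to 12 were called. The median of the 9 MHC class II genes was 0.60 and changed sign to -1.18 without the 4 libraries, and that of 36 small intestinal enterocyte genes went from 1.09 to -0.22. The 79 cytosolic ribosomal proteins also had 0 calls in the main fit, with 23 at an unadjusted p under 0.05. With the summed CPM of Lyz1 and the defensins as a covariate, 30 of the 79 were called lower and 0 higher, with a median of -0.47. Without the 4 libraries the median was -0.37. In the main fit the median was -0.24 with 4 of 79 above 0, and these genes summed to 66326 to 78934 TPM in floxed and 56871 to 67602 TPM in deleted libraries. In CBPWTp53ΔIEC replicate 1, however, 73 of the 79 were above the floxed mean on the log2 CPM scale with TMM factors. Its summed TPM, 67602, lay within the floxed range.

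**Figure D4:**
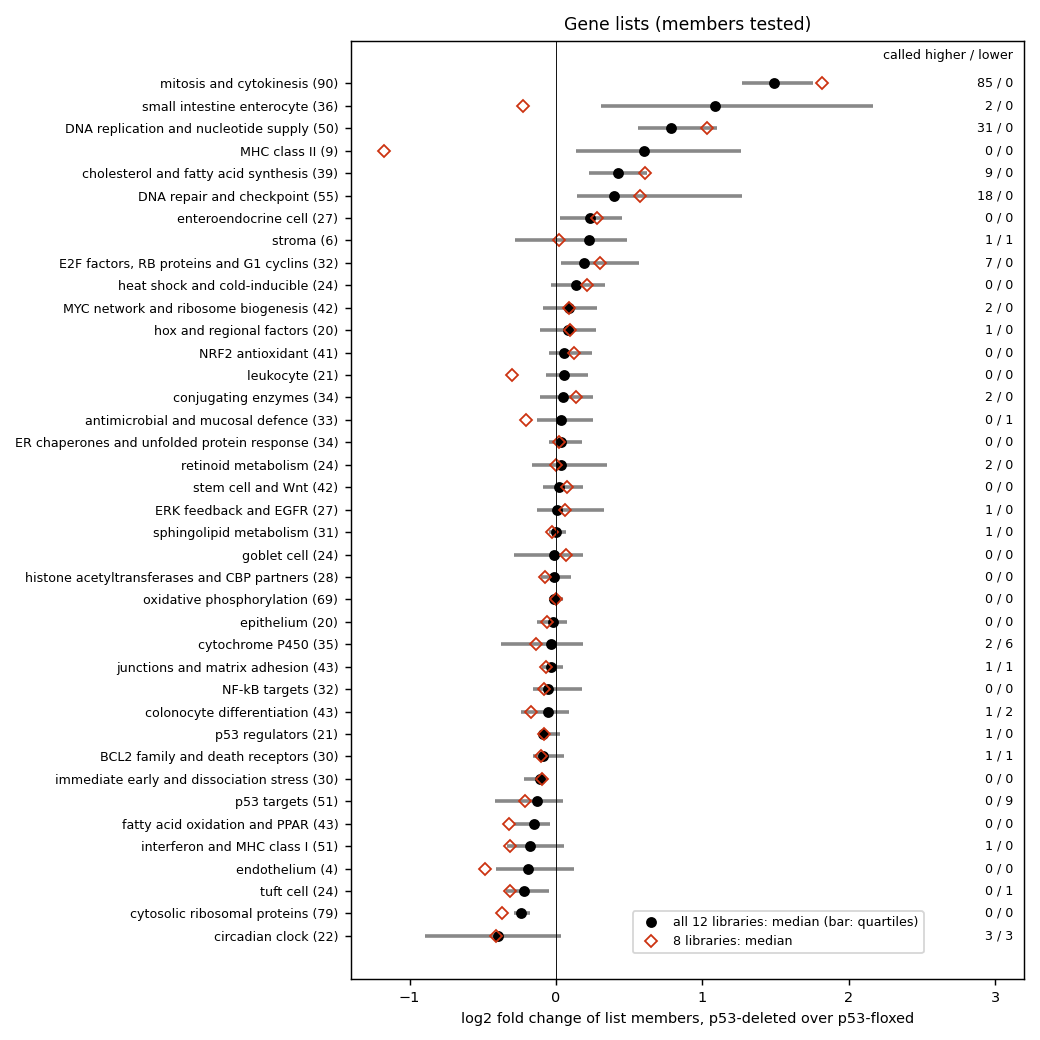
Median log2 fold change of the tested members of 39 gene lists after p53 deletion, in all 12 libraries (black, with a bar between the quartiles) and in the 8 libraries without high Lyz1 (red diamonds). The numbers at the right are the members called higher and lower in all 12 libraries. Mitosis has the highest median (1.49, 85 of 90 called higher), and the small intestine enterocyte and MHC class II medians move most without the 4 libraries among the lists drawn, to below 0. The Paneth cell list, median 4.40 with 0 calls, is off the scale and not drawn.

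Whether the averaged effect holds in each CBP genotype was read from the pair of within-genotype contrasts, which share no library. Within CBPWT, with 3 against 3 libraries, 460 genes were called (3.15%), 335 higher and 125 lower. Within CBPAA only 4 were called (0.0274%): Trp53, Ephx1, Eda2r and the unnamed transcript Gm10736. A gene called in CBPWT and not in CBPAA is not thereby shown to differ. Of the 460 genes, 420 had the same sign in CBPAA, beside 57.5% of all genes tested, and there their median change in the CBPWT direction was 0.43, beside a median size of 1.05 in CBPWT, the contrast that chose them. The log2 effect on Ephx1 was -1.79 ± 0.22 in CBPWT and -1.93 ± 0.22 in CBPAA, that on Eda2r -5.67 ± 0.71 and -4.61 ± 0.59, and that on Aurkb 2.06 ± 0.41 and 1.52 ± 0.41. The median of the 90 mitosis genes was 1.72 in CBPWT and 1.33 in CBPAA. CBPAA holds the deleted library in which mitosis genes were at the floxed level, and without the 4 libraries 1729 genes were called in CBPWT. The 1053 calls in CBPAA without them set 1 deleted library against 2 floxed ones, with the lone library assumed to vary like the other groups, and are not a comparison of replicated arms. Leaving out 1 library of CBPWT gave 7, 2 and 1 calls in CBPWT for the floxed libraries and 906, 7 and 4 for the deleted ones, and leaving out CBPAAp53ΔIEC replicate 3 gave 326 calls in CBPAA.

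The test of the difference itself, the interaction of p53 deletion with CBP genotype, passed for 1 gene of 14610 (0.00684%), with 1502 at an unadjusted p under 0.05, and for 32 genes in DESeq2. Without the 4 libraries it passed for 35 genes, with 1 CBPAAp53ΔIEC library left, and it passed for 0 without any 1 of the CBPWTp53-floxed libraries, CBPAAp53-floxed replicate 2 or 3, CBPWTp53ΔIEC replicate 3 or any 1 of the CBPAAp53ΔIEC libraries. Gm10736 (chr13:111593534-111593611) rose by 0.62 ± 0.15 in CBPWT and fell by 1.08 ± 0.15 in CBPAA, a difference of -1.71 ± 0.21 (edgeR adjusted p = 0.0222). It overlaps a transcript on the opposite strand, so the source of its reads is uncertain. The shared calls with the smallest interaction p were Abca1, a cholesterol exporter (-1.47 ± 0.20 in CBPWT, -0.27 ± 0.20 in CBPAA), Cyp4f15 (4.30 ± 0.55 and 1.24 ± 0.45) and Cenpw, of the centromere (2.47 ± 0.35 and 0.59 ± 0.32), each with an adjusted p of 0.482. Vcan, a matrix proteoglycan, differed by -0.23 ± 0.29 in CBPWT and 1.33 ± 0.31 in CBPAA, also with an interaction adjusted p of 0.482. It had 34, 77 and 70 reads in CBPWTp53-floxed, 18, 22 and 19 in CBPAAp53-floxed, 22, 58 and 60 in CBPWTp53ΔIEC and 43, 66 and 43 in CBPAAp53ΔIEC libraries, so the CBPAAp53-floxed libraries were the low ones.

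**Figure D5:**
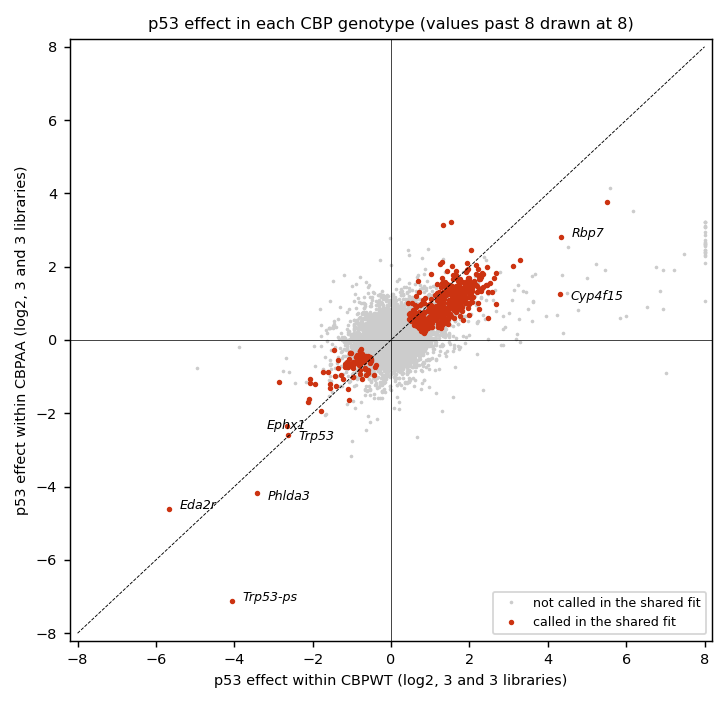
Fitted log2 effect of p53 deletion within CBPWT (horizontal) and within CBPAA (vertical), 3 against 3 libraries each, for the 14610 genes, with the 486 genes called in the averaged fit in red and the dashed line of equal effects. Values past 8 are drawn at 8. All 486 red points have the same sign in both genotypes, as the averaged call favours, and the p53 targets Eda2r, Phlda3 and Ephx1 lie near the line.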

How the data were processed

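Per the labels and the study's methods, crypts were freed from colon with EDTA and RNA was taken up in TRIzol. The labels name a TruSeq Stranded mRNA kit for the libraries, whereas the methods name a TruSeq RNA kit without the word stranded. The submitters' processing notes name FastQC 0.11.9, fastp 0.20.0, HISAT2 2.1.0, SAMtools 1.9, Subread 2.0.1 with featureCounts, and GRCm38. Their use of strand in counting is not given in the sources used here, so genes that overlap on opposite strands are uncertain. The authors deposited raw counts per gene and TPM per gene for each library, and fold changes and p-values of 5 comparisons of their own, which were not used. Coordinates are those of GENCODE M21, and promoters, their windows and the miRNA are from RefSeq.

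The deposited counts went into edgeR 4.0.16 under R 4.3.3 (filterByExpr by the 4 groups with a minimum count of 10, TMM, robust quasi-likelihood fit with CBP genotype and p53 state as terms). P-values were adjusted over all 14610 genes by the Benjamini-Hochberg method, so that many genes share the same adjusted p. SE was taken as the log2 fold change divided by the root of F. A 4-group fit gave the within-genotype contrasts and the interaction. limma 3.58.1 and DESeq2 1.42.0 served as alternatives, and the code was tested on simulated counts. TPM were only summed over lists. Named genes were Trp53, the 15 largest rises and 15 largest falls among called genes with arms that did not overlap, up to 5 genes of smallest p in each of 40 lists with every called p53 target, the 3 called genes of smallest interaction p, and Vcan, Cdkn1a, Crebbp and Lgr5. Genes named outside this rule are said to be so or complete a count. Members, lists and tests were chosen with earlier results of these data known. The mice are separate animals, and replicates correlated at 0.952 to 0.992 across genes. Other tests, normalisation, filters, designs and cutoffs were tried, and each library was left out in turn. The counts without the 4 libraries with Lyz1 reads and with a Paneth marker covariate were chosen after seeing the data. Some genes that the rule names are not reported here.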

Additional observations from a re-analysis of the deposited data

Results flagged for a closer look

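Of 210 sets of 6 libraries of an arm, for the genes named above and the summed lists, 13 had a highest library whose gap to the next, divided by the range of the arm, was above Dixon's critical value for 6 values. Chance alone marks about 1 in 20 such sets. Markers of the small intestine were among them. Lyz1 was 65.4 CPM in CBPAAp53-floxed replicate 2 (at most 1.52 CPM in the other floxed libraries) and 1356 CPM in CBPWTp53ΔIEC replicate 1 (0 to 391 CPM in the other deleted libraries). Olfm4 was 11.9 CPM in CBPAAp53-floxed replicate 2, with 0.0555 to 0.227 CPM in the other floxed libraries. The Paneth cell list summed to 12179 TPM in CBPAAp53-floxed replicate 3 and to 1909 to 5319 TPM in the other floxed libraries. That library had only 17 Lyz1 reads, and its small intestine enterocyte list summed to 3766 TPM. Which members carry its Paneth cell sum, and where that sum comes from, was not tested.

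CBPAAp53-floxed libraries were also high for genes of other kinds. Replicate 1 had 5.89 CPM of Ncapg, 5.51 CPM of Ticrr and 292 CPM of Cyp2d34, beside medians of 3.95, 3.46 and 214 CPM over the floxed arm. Replicate 2 had 18.2 CPM of Bax and 18.8 CPM of Wrap53 (medians of 11.8 and 12.4 CPM), and replicate 3 had 10.8 CPM of Nfil3 (median 7.40 CPM). Among the deleted libraries, CBPAAp53ΔIEC replicate 3 had 17.5 CPM of Per2 and 36.8 CPM of Per3, with 9.54 to 11.2 CPM and 8.23 to 17.8 CPM in the other deleted libraries. Trp53-ps was at 0.127 CPM in CBPWTp53ΔIEC replicate 2 and at 0 in the other deleted libraries. Gm10736 is listed because its p53 effect differed between the CBP genotypes by -1.71 on the log2 scale (interaction, edgeR adjusted p = 0.0222).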

How the results depend on the processing

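Trp53 kept its fall in all alternatives run. Among list medians, those of MHC class II (0.60 to -1.18) and small intestine enterocyte genes (1.09 to -0.22) changed sign without the 4 Lyz1 libraries. Rises, 2.7% of the genes tested, came to 7.08% in limma, 6.33% with the Paneth covariate, 7.12% without the 4 Lyz1 libraries and 1.66% beyond a log2 change of 1. Falls, 0.623%, came to 4.41%, 3.77%, 3.95% and 0.157% in the same settings, to 1.29% in DESeq2 and to 1.12% without a fold threshold. Calls within CBPWT (460) were 871 in DESeq2, 1713 in limma, 1242 with the covariate, 1729 without the 4 libraries and 243 beyond a log2 change of 1. Those within CBPAA (4) were 75, 417, 1458 and 1053 in the first 4 of these and 11 with no filter on low counts, where the count without the 4 libraries rests on 1 CBPAAp53ΔIEC library, assumed to vary like the other groups, as does that of the interaction. The interaction (1) passed for 32, 2, 3 and 35 genes in those 4 and for 2 with no filter. Called genes of the lists (193) were 348 in limma, 355 with the covariate and 363 without the 4 libraries. The cause of these shifts was not tested, except that the fold thresholds change counts by construction. Leaving out 1 library gave 0.665% to 4.66% rises, 0.188% to 2.01% falls, 1 to 906 calls in CBPWT, 1 to 326 in CBPAA, 0 to 1 for the interaction and 66 to 280 list genes. The list genes were under 193 by over 1.5 times without any 1 of the CBPWTp53-floxed libraries (79, 94 and 66), CBPWTp53ΔIEC replicate 2 or 3 (119 and 116) or CBPAAp53ΔIEC replicate 1 (89). Of 223 genes followed through the settings, 0 to 36 lost their call in a setting. Among those called in the main fit or in the setting, 0 changed sign. Sign changes of genes called in neither were not counted.

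The replicate numbers did not pair the samples: 3 of 18 same-numbered pairs correlated above 0.1 (-0.526 to 0.548), and 3 of 12 libraries correlated best with their own number. With the replicate block there were 1.64% rises, 0.301% falls, 32 calls in CBPWT, 2 in CBPAA and 0 interactions. At 11177430 to 18029125 reads per library, genes with few reads are known only within the counting intervals given.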

Other observations

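Lists with few calls held some further changes in edgeR. Hoxb6, a regional homeobox factor, rose by 0.59 (adjusted p = 0.0378), and the ETS factor Etv4, a target of ERK signalling, by 1.05 (adjusted p = 0.0426), the single calls among 20 tested regional factors and 27 tested ERK and EGFR genes, shares close to the 2.7% called higher over all genes. Leaving out 1 library gave 0 to 2 and 0 to 4 rises in these lists, with 0 in most cases, and without the 4 libraries the ERK and EGFR list had 5 higher and 3 lower. Rdh11, a retinol dehydrogenase, rose by 0.60 (adjusted p = 0.0416), and S1pr2, a receptor of sphingosine 1-phosphate, by 0.78 (adjusted p = 0.0295). Mlxipl, a glucose-responsive factor of the MYC network, rose by 0.54 (adjusted p = 0.0156), and the bile acid transporter Slc10a2 by 0.56 (adjusted p = 0.0396). Slc10a2 is a member of the small intestine enterocyte list, and without the 4 libraries its change was 0.32, under the fold threshold. Gstm3 (0.67, adjusted p = 0.043), Ugt2b36 (0.66, adjusted p = 0.0106) and H2-Q1 (0.71, adjusted p = 0.0302) belong to families of near-identical genes, so their values are uncertain. Kctd12 fell by 0.79 (adjusted p = 0.0168), the single call among 24 tuft cell markers (4.17%, beside 0.623% of all tested genes called lower). Of these markers 5 had a log2 change above 0 (median -0.22), and leaving out 1 library gave 0 to 2 falls. These genes were picked as the remaining calls of their lists, after their values were seen.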
